A study of Homo sapiens with 2 samples.

Results

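The genes described here encode the machinery that carries new proteins into the endoplasmic reticulum (ER) and the coats that move them between the ER and the Golgi apparatus. They were chosen by symbol: genes named SEC or SRP with a number, SSR1 to SSR4, SPCS, TRAM, SAR1A and SAR1B, the coatomer (COP) subunits, TMED and TRAPPC. SEC13 and pseudogenes were left out, and 1 row was used per symbol. Of 16424 listed genes, 74 were members, and 72 of these had a mean of at least 1 CPM (the tags of a gene scaled to the size of the library) over both libraries. COPZ2, with 0.04 CPM in non-treated cells and listed at 0 in M2BPGi-treated cells, and TRAM1L1, listed at 0 in both, were below this level. Levels were measured by CAGE, cap analysis of gene expression, in which the starts of capped RNAs are read as short tags. Each transcript gives 1 tag whatever its length, so CPM is a level per transcript and can be compared between genes. The cells were PLC/PRF/5, a human hepatoma line. M2BPGi, a glycan isomer of Mac-2 binding protein, is used as a serum marker of liver fibrosis. Cells given 3 µg/ml of it for 6 h gave 1 library, and non-treated cells (0 µg/ml) gave 1 library. The study asked which signals M2BPGi regulates in liver cancer cells.

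With 1 library per condition, no difference has a replicate check, and no test of the treatment was possible. The non-treated library held 24040209 tags and the M2BPGi-treated library 24862942 tags. Log2 ratios are of M2BPGi-treated over non-treated values, each with 1 CPM added, so they are too small for genes of low level. The interval given for a gene is the 95% Clopper-Pearson interval of the log2 ratio of its tags, and it covers counting error only. Where 2 values are given for a gene, the first is from non-treated and the second from M2BPGi-treated cells, and "lower" and "higher" describe the second against the first. Genes were counted at a log2 difference of at least 0.32 and at a ratio of at least 1.5-fold.

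Secreted and membrane proteins carry a hydrophobic signal that the signal recognition particle (SRP) binds as it leaves the ribosome. The SRP receptor docks the ribosome on the ER, the SEC61 channel threads the chain through the membrane, and the signal peptidase removes the signal. Folded cargo leaves the ER in vesicles coated by COPII and returns from the Golgi in vesicles coated by COPI, while p24 proteins select cargo and TRAPP complexes help vesicles to dock. Hepatocytes secrete most plasma proteins and depend heavily on this route.

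As a whole, the members were close to the other genes, but their role groups differed. The median log2 ratio of the 72 members was −0.06, and that of all 13724 genes with a mean of at least 1 CPM was −0.05. The 51 members without a near-identical stretch in another gene had a median of −0.10, and the 21 with one had −0.01. Of the members, 43 (59.7%) were lower, against 57.02% of all genes. Lower by at least 0.32 were 8 members (11.1%), where the share over all genes was 18.4%. Higher by at least 0.32 was 1 member, SRP68, where the share over all genes was 9.04%. This count was 2 with the median of all genes set to 0, 5 after subtraction of the median of genes of similar length, and 0 without members that share a near-identical stretch. None of the members passed 1.5-fold in either direction, where 4.04% of all genes were lower and 1.6% were higher. The members were also abundant, with a median of 96.2 CPM against 20.9 CPM over all genes, so their counting errors were small. The counting interval lay below 0 for 29 members (40.3%) and above 0 for 16 members (22.2%), against 31.5% and 22.8% of all genes. These shares were near the background or below it, except for the intervals below 0.

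The 8 members lower by at least 0.32 were SEC61A1, SEC61A2, TRAM1, TRAM2, SSR1, SPCS3, TMED3 and TMED6. With the median of all genes set to 0, TRAM1, SSR1 and SPCS3 were no longer past 0.32, and the other 5 were. The 8 belong to the translocon, the signal peptidase and the p24 proteins, which are largely proteins embedded in the membrane. In these 3 groups together, 23 of 27 members were lower, with a median log2 ratio of −0.23, and their summed level went from 8417 to 7495 CPM. In the SRP and the COPII, COPI and TRAPP groups, whose proteins are mostly soluble or attach to the membrane surface, 16 of 38 members were lower, the median was 0.03, and the summed level went from 3371 to 3547 CPM. The shares lower were 85.2% and 42.1%, against 57.02% of all genes, whose median was −0.05. The SEC22 SNARE proteins, which are anchored in the membrane, were left out of this division and went against it, with a median of 0.06 and 2 of 3 higher. The division was drawn after the values were seen and carries no test.

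**Figure D1:**
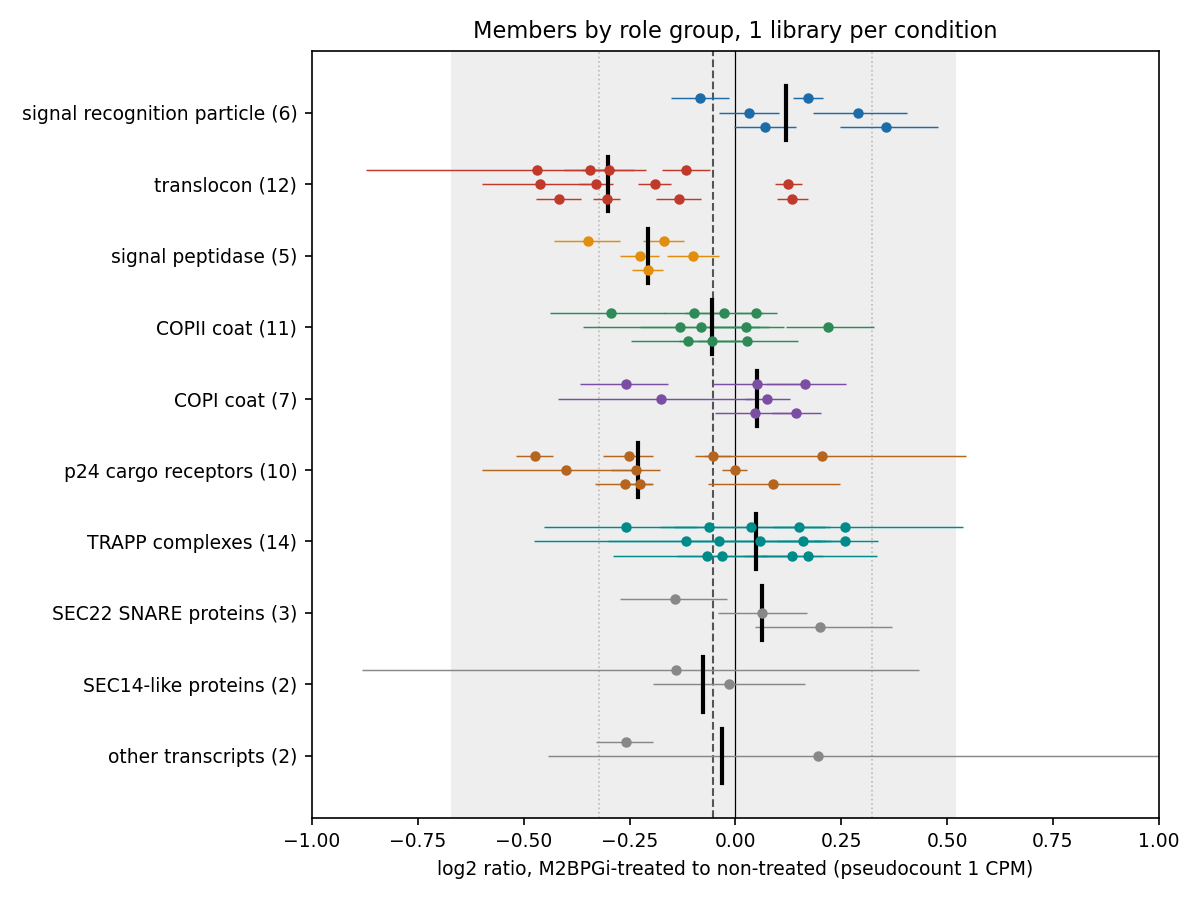
Log2 ratio, M2BPGi-treated over non-treated (x axis) for the 72 members, in rows by role group with the number of members. Points are genes, horizontal lines are 95% counting intervals, thick black bars are group medians, the dashed line is the median of all 13724 genes, the grey band holds the central 95% of them, and dotted lines mark 0.32 to either side of 0. The translocon, signal peptidase and p24 medians lie left of the dashed line, and the SRP, COPI and TRAPP medians lie right of it.

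The SRP genes were mostly higher. The summed level of the 6 SRP protein genes was 971 and 1056 CPM. Their median log2 ratio was 0.12, and 1 of 6 was lower, against 57.02% of all genes. SRP68, which with SRP72 forms the large heterodimer of the particle, had 43.6 and 56.1 CPM. Its log2 ratio was 0.36 (interval 0.25 to 0.48). SRP72 had 49.1 and 60.2 CPM, a log2 ratio of 0.29 (0.18 to 0.41). These 2 subunits thus moved together and beyond their counting error. SRP14, which with SRP9 pauses translation, was the most abundant subunit, with 482 and 543 CPM (0.14 to 0.21). SRP9 had 122 and 128 CPM, and SRP19, which helps the particle to assemble, had 131 and 134 CPM, both within counting error. SRP54, the subunit that binds the signal sequence, was the lower one, with 144 and 136 CPM (−0.15 to −0.01). SRP9, SRP14, SRP68 and SRP72 match pseudogenes over part of the first 500 bases of the transcript. SRP19 shares a stretch of 137 bases with ZRSR2, another gene. The tags of all these members may thus belong elsewhere. Without them only SRP54 was left, and the group median turned to −0.082, so the direction of the group is uncertain. After subtraction of the median of the length class the group median was 0.12, with SRP9 at −0.01 and SRP14 at 0.09.

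The RNA core of the particle, 7SL, is not covered by the symbol rule and was looked at after its values were seen. RN7SL1 had 59.2 and 179 CPM, and RN7SL2 had 93.3 and 280.1 CPM. The ratio was 3.03 and 3.00, respectively. RN7SL3 had 26.2 and 38.5 CPM. 7SL RNA is made by RNA polymerase III and has no cap of the kind that CAGE selects, and its genes are close copies of each other. Of other RNAs of this polymerase, 3 were looked at, also after their values were seen. RPPH1 had 11.9 and 40.9 CPM, RMRP 31.5 and 53.1 CPM and RN7SK 1.87 and 4.22 CPM. What set these values was not tested.

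A pseudogene of SRP9 showed a far larger difference than any member. SRP9P1, left out by the rule, had 1.62 and 107 CPM, the 4th highest log2 ratio of all genes. It is identical to SRP9 over 261 bases of the first 500 bases of the transcript. The summed level of SRP9 and SRP9P1 was 123 and 235 CPM. The other left-out pseudogenes with a mean of at least 1 CPM differed far less. SEC13P1 had 13.02 and 15.4 CPM, SEC63P1 had 14.2 and 12.9 CPM, SPCS2P4 had 2.95 and 1.93 CPM, and TRAPPC2P1 had 37.4 and 29.8 CPM, values that ZNF547 shared exactly. How tags that fit both a gene and its copy were placed was not tested.

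The receptor of the particle was lower. SRP54, the only SRP member without a near-identical stretch elsewhere, was also lower, so a contrast with the particle is uncertain. SRPR, the subunit that meets the SRP at the membrane, had 366 and 282 CPM, a log2 ratio of −0.37 (−0.42 to −0.33). SRPRB, the membrane anchor of the receptor, had 164 and 109.8 CPM, a log2 ratio of −0.57 (−0.65 to −0.50). Both subunits were lower by at least 0.32, as were 18.4% of all genes, and their summed level went from 529.5 to 391.8 CPM.

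The translocon genes had the lowest median of the role groups of members. Of 12 members, 10 were lower, 5 of them by at least 0.32, and the median log2 ratio was −0.30. Over all genes, 57.02% were lower, 18.4% by at least 0.32, with a median of −0.05. SEC61A1, which encodes the pore of the channel, had 273 and 204 CPM, a log2 ratio of −0.42 (−0.47 to −0.37). Its paralog SEC61A2 was rare, with 7.78 and 5.35 CPM, and had a similar log2 ratio of −0.47 (−0.87 to −0.21). The small subunits of the same channel went the other way. SEC61B had 481 and 528 CPM, a log2 ratio of 0.13 (0.10 to 0.17). SEC61G had 644 and 702 CPM, a log2 ratio of 0.13 (0.09 to 0.16). SEC61B and SEC61G were the only translocon members above 0, so the subunits of 1 complex differed in direction beyond their counting error. However, SEC61G shares near-identical stretches with BORCS7 and NUDT3. After subtraction of the median of the length class SEC61G stood at 0.04 and SEC61B at 0.16, so the direction of SEC61G is less certain.

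The proteins around the channel were all lower. TRAM1, which lies beside the channel and contacts the incoming chain, had 208 and 164 CPM, a log2 ratio of −0.34 (−0.40 to −0.28). TRAM2, its paralog, had 49.1 and 35.4 CPM, a log2 ratio of −0.46 (−0.60 to −0.34). SEC62 and SEC63, which help precursors to enter after their synthesis is complete, had similar ratios. SEC62 was among the most abundant members, with 703 and 570 CPM (−0.34 to −0.27), and SEC63 had 193 and 156 CPM (−0.36 to −0.24). SSR1 to SSR4 encode the subunits of the translocon-associated protein complex. SSR1 had 467 and 372 CPM, with a log2 ratio of −0.33. SSR2 followed with 445 and 390.1 CPM and −0.19. SSR3 had 240.2 and 219 CPM and −0.13, and SSR4 had 219 and 202 CPM and −0.12. All 4 subunits of this complex were thus lower. However, SEC63 and SSR3 share near-identical stretches with other genes, SEC63 with the pseudogene SEC63P1, so their tags may belong elsewhere. Without the members that share such a stretch, the translocon median was −0.33. The interval of SSR1 (−0.37 to −0.29) did not meet that of SSR4 (−0.17 to −0.06), but SSR1 has a long transcript (9669 bases), and after the median of the length class was subtracted SSR1 stood at −0.19 and SSR4 at −0.11, so a difference between them is uncertain.

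**Figure D2:**
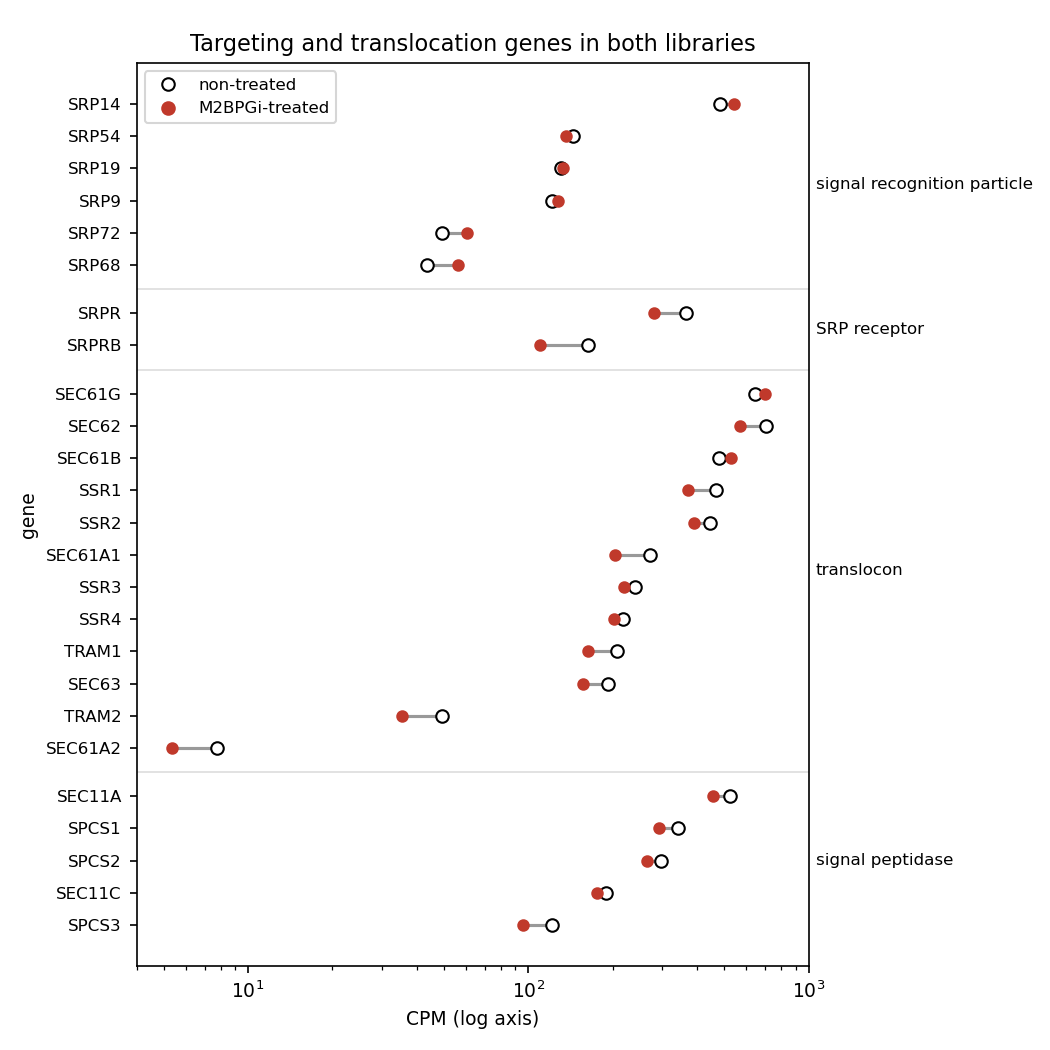
Level in CPM (x axis, log scale) of the SRP, SRP receptor, translocon and signal peptidase genes with a mean of at least 1 CPM, ordered by mean level within each group. Open circles are the non-treated library and red circles the M2BPGi-treated library. The red circle lies left of the open circle for both receptor genes, 10 of 12 translocon genes and all 5 signal peptidase genes, and right of it for 5 of 6 SRP genes.

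The signal peptidase genes were lower without exception. All 5 members lay below 0, as did their counting intervals, and the summed level went from 1477 to 1285 CPM. Of all genes, 57.02% were lower and 31.5% had an interval below 0. SEC11A, a catalytic subunit, had 526 and 456 CPM, a log2 ratio of −0.21 (−0.24 to −0.17). SEC11C, the alternative catalytic subunit, had 189 and 176 CPM, a log2 ratio of −0.10 (−0.16 to −0.04). SPCS3, an accessory subunit needed for activity, had the lowest ratio, with 122 and 95.5 CPM and −0.35 (−0.43 to −0.27). SPCS1 had 342 and 293 CPM, and SPCS2 had 297 and 265 CPM. SEC11A and SPCS2 share near-identical stretches with other genes, SPCS2 one of 461 bases with the pseudogene SPCS2P4. The tags of these members may thus belong elsewhere. Without them the group median was −0.23, against −0.21 with them.

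The starts of the members were searched for short motifs, since ER genes are known to share binding sites of stress-responsive factors. RefSeq promoter windows of 300 bases (250 before and 50 after the start, GRCh38.p14) were matched by symbol for 64 of the 72 members, and SEC24D, SPCS1, TRAM1, TMED4, TMED9, TRAPPC8, TRAPPC9 and SEC24B-AS1 had no match. Of the 13724 genes with a mean of at least 1 CPM, 8799 had a matched window, and shares and medians over genes in the motif search refer to these. Both strands were searched, and a gene was counted if any of its windows held the motif. The ER stress element (CCAAT, 9 bases of any kind and CCACG) was in 0 of 64 members. It was in 0.170% of the 8799 genes and in 0.0769% of all 35116 windows, too rare for a count of 0 to be informative. The core TGACGTG, found in sites of XBP1 and ATF6, was in 11 of 64 members (17.2%), in 3.42% of the 8799 genes and in 1.97% of all windows. Its first 5 letters alone, TGACG, were in 48.4% of members and 41.4% of those genes. The ETS core CCGGAA was in 64.1% of members and 36.8% of those genes. The motif CCACG alone was in 76.6% and 58.3%, the GC box GGGCGG in 78.1% and 78.4%, and TATAAA in 3.13% and 7.75%. TGACGTG contains TGACG, so these shares overlap. Of all windows, 24.6% held TGACG, 17.2% CCGGAA, 38.1% CCACG, 45.0% GGGCGG and 11.5% TATAAA. The median log2 ratios of members with and without TGACG were −0.08 and −0.0019. They were −0.01 and −0.14 for CCGGAA, −0.05 and −0.04 for CCACG, and −0.07 and 0.04 for GGGCGG. For TATAAA, which 2 members held, they were 0.26 and −0.06. Gaps between the medians were thus not particular to 1 motif.

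The 11 members with TGACGTG were SEC61A1, SEC62, SSR3 and SSR4 of the translocon, COPA, COPB1, COPB2 and COPE of the COPI coat, SEC23A and SEC24A of the COPII coat, and SRP19. Their median log2 ratio was −0.12, against −0.04 for the 53 other members with a window. Of the 11, 7 were lower, near the 57.02% of all 13724 genes. Over the 8799 genes the medians with and without it were −0.10 and −0.05. Stretches of 130 bases that end just before the start are shown for 4 of these members, because the same letters stood before genes that were lower and before genes that were not. Capitals mark the motif, which reads CACGTCA here since it lies on the other strand.
SEC62: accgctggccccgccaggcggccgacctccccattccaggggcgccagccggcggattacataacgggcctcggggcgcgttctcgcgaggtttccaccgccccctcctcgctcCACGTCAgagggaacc
SSR4: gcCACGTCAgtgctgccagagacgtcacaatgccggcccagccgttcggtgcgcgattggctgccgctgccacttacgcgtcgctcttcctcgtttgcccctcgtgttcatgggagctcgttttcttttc
COPB1: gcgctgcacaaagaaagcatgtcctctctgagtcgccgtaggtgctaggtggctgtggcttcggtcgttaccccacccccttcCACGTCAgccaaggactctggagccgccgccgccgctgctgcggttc
SRP19: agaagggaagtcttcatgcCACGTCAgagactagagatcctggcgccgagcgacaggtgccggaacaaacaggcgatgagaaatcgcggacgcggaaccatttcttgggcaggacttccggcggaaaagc
In GRCh38.p14 these are chr3:169966677-169966806 (plus strand) for SEC62, chrX:153794538-153794667 (plus strand) for SSR4, chr11:14499812-14499941 (minus strand) for COPB1 and chr5:112861157-112861286 (plus strand) for SRP19. SEC62 and SSR4 were lower, COPB1 was higher, with 186 and 205 CPM, and SRP19 was within counting error. A match is a description of the sequence and does not show that a factor binds there.

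The transcription factors listed for the secretory pathway and for ER stress differed in direction. XBP1, which activates secretory pathway genes after its mRNA is spliced, had 1221 and 986 CPM, a log2 ratio of −0.31 (−0.33 to −0.28). CAGE counts all XBP1 transcripts and cannot tell the spliced form. ATF6, an ER membrane-bound factor, had 16.9 and 17.4 CPM, while its relative ATF6B had 50.5 and 37.5 CPM, a log2 ratio of −0.42 (−0.56 to −0.31). ATF4, made when initiation of translation is restrained, was higher with 243 and 309.6 CPM, and so was its target DDIT3 with 90.3 and 116 CPM. CREB3L2, which activates COPII genes in some secretory cells, had 48.0 and 41.9 CPM, CREB3 had 70.0 and 71.5 CPM, and CREB3L4 had 5.99 and 5.15 CPM. CREB3L3 was below 1 CPM in both libraries. Of the 8 factors kept, 4 were lower, 1 of them by at least 0.32, and 2 were higher by at least 0.32. Over all genes, 57.02% were lower, 18.4% were lower and 9.04% were higher by at least 0.32, and counts in a list this short carry little weight.

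The COPII coat genes were close to unchanged as a group. Their summed level was 907 and 898 CPM, the median log2 ratio was −0.05, and 7 of 11 were lower, against 57.02% of all genes. SEC31B, whose values another gene shares, gave 257 and 265 CPM of this sum, and without it the median was −0.07. None of the 11 differed by 0.32 or more, and the intervals of 8 included 0. After subtraction of the median of the length class, SAR1B passed 0.32 (0.33). The GTPase that starts coat assembly comes in closely related forms. SAR1A had 141 and 131 CPM, and SAR1B, which is needed for the export of large lipoproteins, had 56.6 and 66.0 CPM, a log2 ratio of 0.22 (0.12 to 0.33). Their sum was 197.3 and 197.4 CPM, so the share of SAR1A went from 71.3% to 66.6% at the same total. SAR1B was the highest COPII member in log2 ratio. However, SAR1B shares near-identical stretches with many other genes, PKIB (129 and 140 CPM) among them, and SAR1A shares one with the pseudogene SAR1AP1, so the shift in share and the rank of SAR1B may rest on tags of other genes.

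The inner coat consists of SEC23 and SEC24, and SEC24 binds the cargo. SEC23A had 112 and 108 CPM and SEC23B had 78.9 and 77.4 CPM, both within counting error. All 4 SEC24 genes had log2 ratios below 0, where 57.02% of all genes were lower. After subtraction of the median of the length class SEC24C stood at 0.0049. SEC24A had 40.4 and 32.8 CPM, a log2 ratio of −0.29 (−0.44 to −0.17), the lowest of the group. SEC24B had 14.8 and 13.4 CPM, SEC24C had 34.4 and 32.4 CPM and SEC24D had 41.2 and 38.01 CPM, each with an interval that included 0. SEC24A and SAR1B lie head to head on opposite strands, with annotated starts 482 bases apart, and were respectively the lowest and the highest COPII member. For the outer coat, SEC31A had 83.2 and 84.6 CPM, and SEC23IP, which binds SEC23 at exit sites, had 47.5 and 48.4 CPM. SEC31B was listed with 257 and 265 CPM, but the overlapping gene AL133352.1 had exactly these values and the neighbouring NDUFB8 had 258 and 267 CPM. The tags of SEC31B therefore could not be told apart from those of NDUFB8.

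The COPI coat genes were slightly higher. Of 7 members, 2 were lower, where the share over all genes was 57.02%. The median log2 ratio was 0.05, and the summed level went from 701 to 733 CPM. The coat is recruited to the membrane as 1 complex. COPZ1, the small zeta subunit, had 70.8 and 79.5 CPM, the highest log2 ratio with 0.17 (0.07 to 0.26). COPB1, the beta subunit, had a log2 ratio of 0.14 (0.09 to 0.20). COPE, the epsilon subunit and the most abundant, had 228 and 240.04 CPM (0.02 to 0.13). COPB2 had 59.8 and 62.0 CPM, and COPG1, a gamma subunit, had 74.2 and 76.7 CPM, both within counting error. COPA, the alpha subunit, was an exception with 68.6 and 57.1 CPM, a log2 ratio of −0.26 (−0.37 to −0.16). COPG2, the less abundant gamma paralog, had 13.9 and 12.2 CPM with an interval from −0.42 to 0.04.

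The p24 genes were lower, with 8 of 10 below 0 and a median log2 ratio of −0.23, against 57.02% and −0.05 for all genes. Their summed level went from 3012 to 2663 CPM. p24 proteins span the membrane, cycle between the ER and the Golgi and bind cargo such as proteins with a glycolipid anchor. TMED3 had 419 and 302 CPM, a log2 ratio of −0.47 (−0.52 to −0.43), close to that of SEC61A2. TMED9, the most abundant member, had 837 and 716 CPM, a log2 ratio of −0.23 (−0.26 to −0.20). TMED4 had 209.9 and 178 CPM, TMED5 had 209.8 and 176 CPM and TMED7 had 159.6 and 133 CPM, with log2 ratios between −0.26 and −0.23. TMED2, the second most abundant, had 749 and 748 CPM, no difference detectable at this depth (−0.03 to 0.03), and TMED10, its partner in the p24 complex, had 368 and 355 CPM (−0.10 to −0.01). TMED2 and TMED10 thus differed from TMED9 and TMED3 beyond counting error, although TMED10 shares a near-identical stretch with the pseudogene TMED10P1. TMED1 had 27.0 and 28.8 CPM and TMED8 had 6.70 and 7.88 CPM, both within counting error. TMED6 had 24.8 and 18.5 CPM, but the overlapping gene AC026464.1 had exactly the same values. Without TMED6 and TMED7, whose values another gene shares, the group median was −0.14.

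The TRAPP genes scattered around 0. Of 14 members, 6 were lower, where the share over all genes was 57.02%. The median log2 ratio was 0.05, and the summed level went from 792 to 860 CPM. Without TRAPPC1 and TRAPPC13, whose values another gene shares, the median was 0.0033. These complexes tether vesicles and activate RAB GTPases. TRAPPC2L had 105.7 and 127 CPM, the highest log2 ratio with 0.26 (0.19 to 0.34). The 3 most abundant members, all core subunits, were slightly higher. TRAPPC1 had 167 and 185 CPM, TRAPPC4 had 121 and 133 CPM and TRAPPC5 had 158 and 177 CPM, each with an interval above 0. TRAPPC3, another core subunit, had 51.8 and 49.6 CPM, within counting error. TRAPPC12, a subunit of TRAPPIII, was the lowest, with 23.0 and 19.1 CPM and −0.26 (−0.45 to −0.09). TRAPPC6A had 25.7 and 29.1 CPM and its paralog TRAPPC6B had 14.9 and 14.2 CPM. The TRAPPII subunits TRAPPC9 and TRAPPC10 had log2 ratios of 0.04 and −0.03. TRAPPC13 had 9.65 and 11.7 CPM, which the overlapping gene SHLD3 shared exactly, and TRAPPC1 had values within 2% of those of the overlapping gene AC104581.2.

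The remaining members were few. Of the SEC22 genes, SEC22B, a SNARE protein that fuses ER and Golgi membranes, had 58.6 and 61.3 CPM, SEC22A had 24.1 and 27.8 CPM and SEC22C had 44.0 and 39.8 CPM. SEC14L1 (21.2 and 20.9 CPM) and SEC14L2 (1.83 and 1.57 CPM) match the rule by symbol but encode lipid-binding proteins outside the coats. SEC24B-AS1, an antisense RNA, had 1 and 1.29 CPM. TMED7-TICAM2, a readthrough transcript, had 159.7 and 133 CPM, nearly the values of TMED7, and TICAM2 had exactly those of TMED7, so the tags of these genes could not be told apart.

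Of the 12 paralog pairs set for comparison, 11 were listed with both genes. In 6 pairs both genes were lower, in 1 pair both were higher, and in 4 pairs they had opposite signs. Over all genes, 57.02% were lower. The 4 were SAR1A and SAR1B, COPG1 and COPG2, COPZ1 and COPZ2, and TRAPPC6A and TRAPPC6B. The intervals of COPG1, COPG2 and TRAPPC6B included 0, and SAR1A stood at 0.012 after the median of its length class was subtracted, so the opposite signs are uncertain. In COPZ2 the level was at or under the 0.125 and 0.121 CPM that a count of 0 allows, so its sign means nothing. Shared signs are uncertain too. In the pairs lower for both genes, the intervals of SEC23A, SEC23B, SEC24B, SEC24C and SEC24D included 0. SEC23A, SEC23B and SEC24C lay above 0 after subtraction of the length class. The intervals of SEC31A and SEC31B, the pair higher for both, also included 0. The dominant paralog stayed the same in each pair. SEC61A1 took 97.2% and 97.4% of its pair, TRAM1 took 80.9% and 82.2%, and SEC11A took 73.6% and 72.2%.

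**Figure D3:**
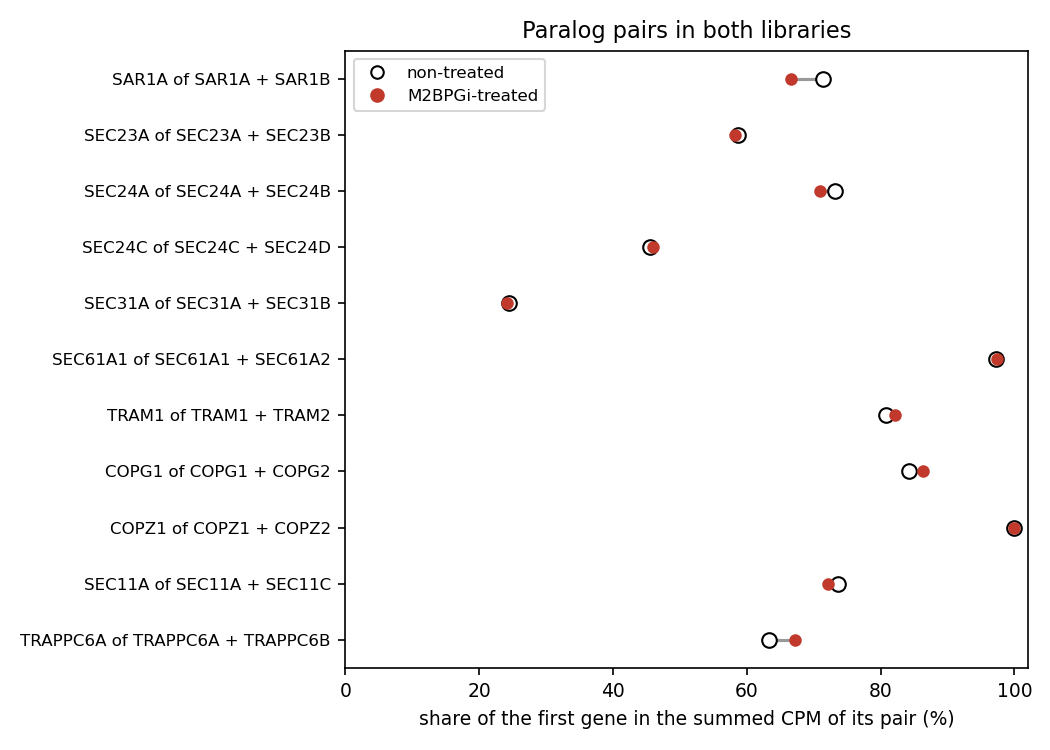
Share of the first-named gene in the summed CPM of its paralog pair (x axis, %), for 11 pairs. Open circles are the non-treated library and red circles the M2BPGi-treated library. The shares moved most for SAR1A, from 71.3% to 66.6%, and TRAPPC6A, from 63.3% to 67.3%, while those of SEC23A, SEC24C, SEC31A, SEC61A1 and COPZ1 nearly coincide. The share of SEC31A rests on the uncertain value of SEC31B, and that of SAR1A on the uncertain value of SAR1B.

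The other genes of the pathway were taken from lists that the symbol rule does not cover. Of 65 such genes with a mean of at least 1 CPM, 11 (16.9%) were lower and 5 (7.69%) were higher by at least 0.32, near the 18.4% and 9.04% of all genes, and the median log2 ratio was −0.02. Among the partners of COPII, 11 of 17 (64.7%) were lower, near the 57.02% of all genes, with a median of −0.20. Several membrane proteins were among the lower ones. LMAN1, the lectin that carries coagulation factors, had 232 and 164 CPM, and its soluble cofactor MCFD2 had 209.8 and 185 CPM. SURF4, a receptor for soluble cargo, had 205 and 145 CPM. MIA3 (TANGO1), which loads bulky cargo, had 68.0 and 47.9 CPM, and its partners MIA2 and CTAGE5, listed as separate genes, had 29.4 and 19.1 CPM and 55.8 and 38.01 CPM. MIA2 was the gene of these lists past 1.5-fold, with a log2 ratio of −0.60 (−0.79 to −0.45). In contrast, SEC13, the outer coat partner of SEC31 that also serves the nuclear pore, had 139.6 and 178 CPM, a log2 ratio of 0.34 (0.28 to 0.41). PREB, the exchange factor of SAR1 and itself a membrane protein, was also higher with 205 and 233 CPM, and LMAN2, a membrane lectin, had 351 and 352 CPM, so the division had exceptions.

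Among the partners of COPI, 7 of 13 were lower, with a median of −0.01, and 1 was lower and 1 higher by at least 0.32. Of all genes, 57.02% were lower, and 18.4% were lower and 9.04% higher by at least 0.32. The KDEL receptors, membrane proteins that return ER residents, were lower, with 325 and 235 CPM for KDELR1, 288 and 244 CPM for KDELR2 and 11.7 and 9.37 CPM for KDELR3. The ARF GTPases that recruit the coat were higher, with 223 and 249.6 CPM for ARF1, 109.1 and 129.8 CPM for ARF3, 161 and 212 CPM for ARF4 and 121 and 147 CPM for ARF5. ARCN1, the delta subunit of the coat, which the symbol rule does not take, had 143 and 159 CPM, close to its partner COPB1. ARFGAP1, which switches ARF1 off, was lower with 69.3 and 55.9 CPM, while ARFGAP2 had 46.8 and 50.2 CPM and ARFGAP3 had 26.3 and 26.2 CPM, both within counting error. ARF4 had the highest log2 ratio of this list with 0.40 (0.34 to 0.46). Of the tethers and SNARE proteins, 7 of 16 were lower, with a median of 0.08, and 2 were lower and 2 higher by at least 0.32. BNIP1, a SNARE protein anchored in the membrane, was the highest with 10.9 and 15.7 CPM. SCFD1, a soluble protein, was the lowest with 62.0 and 47.5 CPM. The SNARE genes STX5, STX18, BET1, USE1, GOSR1 and GOSR2 were within counting error. This list thus went against the division into membrane and soluble proteins. RAB1A and RAB1B, the GTPases that TRAPP activates, had 204 and 235 CPM and 71.9 and 84.2 CPM.

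Other insertion routes had a median of −0.07, with 10 of 17 genes lower. ASNA1, the cytosolic carrier of tail-anchored proteins, was higher with 82.4 and 109.8 CPM, a log2 ratio of 0.41 (0.33 to 0.50). Its membrane receptor subunits WRB and CAMLG had 56.9 and 48.9 CPM and 38.02 and 36.1 CPM, and CAMLG was within counting error (−0.21 to 0.06). The EMC genes of this list went both ways, from −0.34 for EMC9 to 0.18 for EMC8. The most abundant of them, EMC6 and EMC3, had 203 and 228 CPM and 187 and 166 CPM. For comparison, the clathrin coat genes, which serve the Golgi and the cell surface, had a median of 0.05, with 12 of 27 lower. Of these 27 genes, 2 were lower and 1 was higher by at least 0.32. The shares over all genes were 57.02% lower, and 18.4% lower and 9.04% higher by at least 0.32. Clathrin light chain CLTA had 653 and 764 CPM and the heavy chain CLTC had 182 and 162 CPM. The clathrin median thus equalled that of the COPI group at this rounding.

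**Figure D4:**
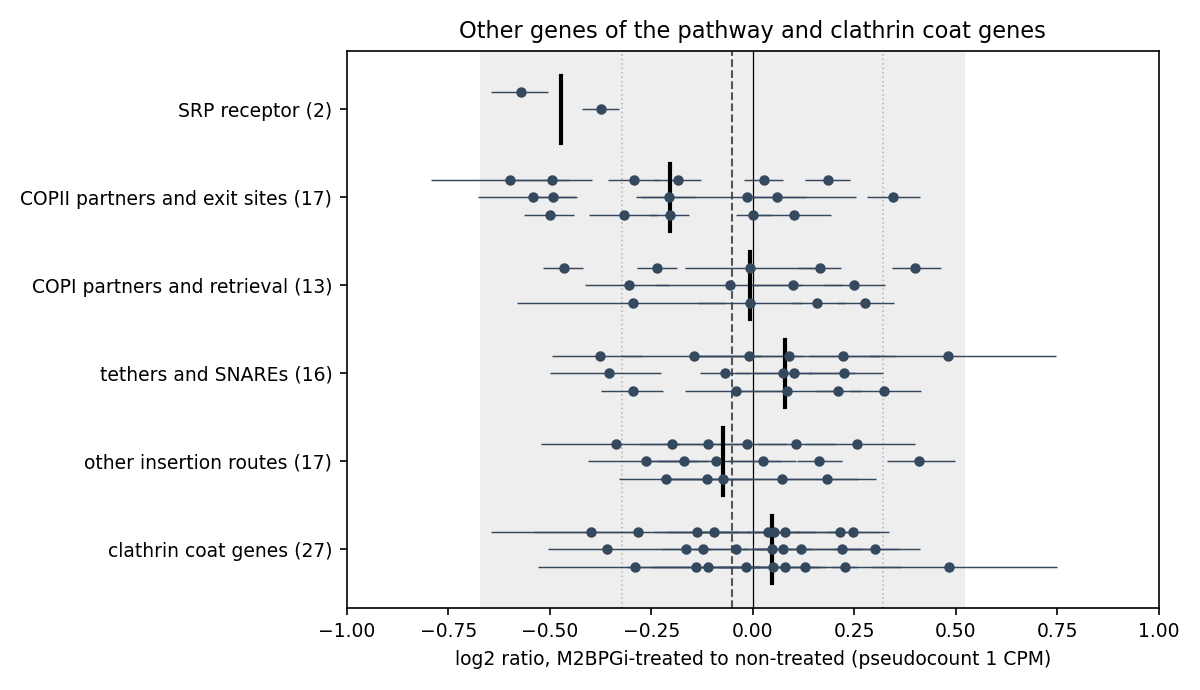
Log2 ratio, M2BPGi-treated over non-treated (x axis) for other genes of the pathway and for clathrin coat genes, in rows by list with the number of genes. Points are genes, horizontal lines are 95% counting intervals, thick black bars are list medians, the dashed line is the median of all genes, the grey band holds the central 95% of them, and dotted lines mark 0.32 to either side of 0. The COPII partners spread from −0.60 (MIA2) to 0.34 (SEC13), and both SRP receptor genes lie left of −0.32.

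Over all genes, the log2 ratio varied with transcript length, and the members were placed against this trend. The median log2 ratio was 0.08 for genes whose longest transcript had 852 to 1612 bases and −0.13 for those with 7215 bases or more. The shortest genes, with 25 to 850 bases, went against this order with −0.02, and SEC61B, TRAPPC1 and TRAPPC6A are among them. The median longest transcript was 3894 bases for the members and 3220 bases for all genes. The genes were divided into 10 classes of length. After the median of its class was subtracted from each gene, the members had a median of 0.01, the translocon of −0.19, the signal peptidase of −0.14 and the p24 genes of −0.17. The SRP, COPI and TRAPP medians became 0.12, 0.12 and 0.14, and the COPII median became 0.01. The translocon, signal peptidase and p24 medians thus moved towards 0 but stayed below it. SEC61B and SEC61G are short, with 687 and 1227 bases, and stood at 0.16 and 0.04 after the subtraction, so SEC61G moved near to its length class. TMED6, with 938 bases, went from −0.40 to −0.48.

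**Figure D5:**
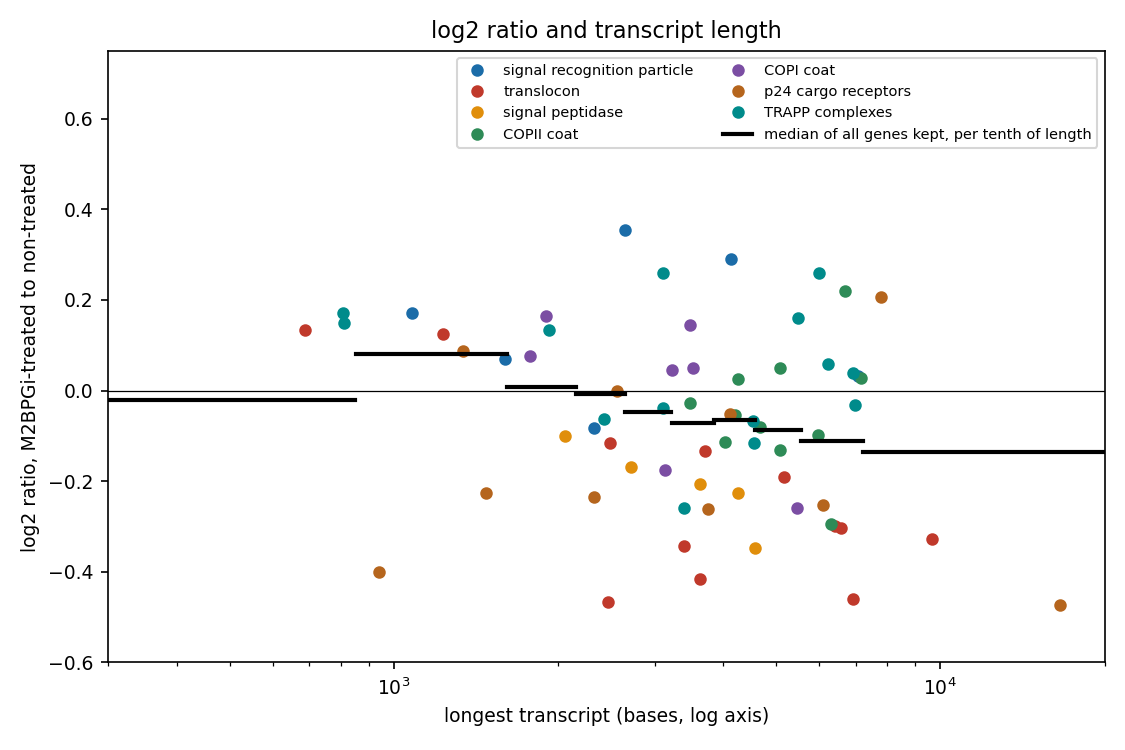
Log2 ratio, M2BPGi-treated over non-treated (y axis) against the longest GENCODE transcript of each gene in bases (x axis, log scale), for the members of the 7 main role groups. Black lines are the medians of all genes in each of 10 classes of length. Most translocon (red) and signal peptidase (orange) genes lie below the black lines, and most TRAPP (teal) genes lie above them.

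Genes that share a start region with a member gave a comparison at the same position in the genome. In 15 head-to-head pairs, with annotated starts within 1000 bases and a partner of at least 10 CPM, 6 pairs were lower for both genes, 3 were higher for both and 6 had opposite signs. Over all genes, 57.02% were lower. The intervals of TRAPPC2 and TRAPPC3 (pairs lower for both), SEC23IP (higher for both) and SEC24B (opposite signs) included 0, so these counts are uncertain. ALG2, a mannosyltransferase whose start lies 108 bases from that of SEC61B, had 142 and 106.3 CPM, while SEC61B was higher. CNTROB, 22 bases from TRAPPC1, had 22.0 and 14.8 CPM. GALNS, 750 bases from TRAPPC2L, had 42.2 and 30.9 CPM. NCSTN, 128 bases from COPA, had 92.3 and 74.2 CPM and was lower together with COPA. RPS25, 259 bases from TRAPPC4, had 367 and 423.5 CPM and was higher together with TRAPPC4. Pairs with and without a shared direction thus both occurred.

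Markers of hepatocytes and hepatoma were present. All 13 of them had a mean of at least 1 CPM, with a summed level of 4783 and 4433 CPM. Of these, 9 were lower, with a median log2 ratio of −0.29. Lower by at least 0.32 were 5 (38.5%), against 18.4% of all genes, and 1 was higher by as much. KRT18 was the most abundant, with 1250 and 1592 CPM. ALB was low, with 8.82 and 7.04 CPM. Several genes of secreted cargo were lower along with the translocon, with 950.03 and 623 CPM for FGB, 671 and 455 CPM for SERPINA1, 695 and 566 CPM for AFP and 15.6 and 11.1 CPM for APOB. APOA2, also secreted, was higher with 241 and 261 CPM. Their part in the values of the translocon genes was not tested. The leukocyte marker PTPRC was listed at 0 in both libraries, CD68 had 21.2 and 20.5 CPM, and the stellate cell or fibroblast markers COL1A1 and COL3A1 had 0.67 and 0.76 CPM and 4.53 and 3.42 CPM. Other leukocyte and stellate cell markers and the endothelial markers were not analysed here. Fewer cells of a type and less RNA per cell cannot be told apart in such libraries.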

How the data were processed

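CAGE libraries of PLC/PRF/5 cells were compared, 1 per condition. The authors removed ribosomal tags and tags holding undetermined bases, used BWA for mapping and CAGEr for clustering, and deposited CPM per gene with 2 decimals. A mouse genome is named in the methods, whereas hg19, BWA and HISAT2 are named in the submitters' processing notes and gene identifiers are human. The assignment of tags to genes is not given in the sources used here. Annotation (GENCODE v29) and promoters (RefSeq) are from GRCh38, which may not be the mapping build. Within the rounding of 0.005 CPM (0.12 tags), all values were multiples of 1 tag, so tag numbers were read back, and every interval rests on them. At a tolerance of 0.1 tags, 87.6% (non-treated) and 94.1% (M2BPGi-treated) of values up to 20 tags were whole. This tolerance is tighter than the rounding, so these shares cannot decide whether values are whole. A count test was not run for this reason, and the counting intervals carry the same limit. Near-identical stretches were searched with BLAST+ 2.17.0 in the first 500 bases of each transcript (at least 100 bases and 95% identity). Genes named by rule were, in each role group, the most abundant member and the lowest and highest log2 ratio with a mean of at least 10 CPM, the paralog pairs, members past 1.5-fold and left-out pseudogenes. The other genes named, the 7SL and head-to-head comparisons, the printed promoters and the division of role groups were picked with the values in view. Members and lists were chosen with earlier results of these data known. The tag numbers and intervals were tested on simulated data. Python 3.11.15 was used, with scipy 1.17.1 and matplotlib 3.10.9. Alternatives were other pseudocounts, filters, scalings, summed rows, length classes, a fold threshold of 2 and subsets of members.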

Additional observations from a re-analysis of the deposited data

How the results depend on the processing

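No paired analysis was possible because there was a single library for each condition, and no library could be left out. TMM factors, planned with edgeR, were computed with a Python implementation of the trimmed mean of M-values on the tags read back. Leaving out members whose values a same-strand gene shares was added after seeing the data. No member passed 1.5-fold under any of the alternatives. The count of 0 at a fold threshold of 2 follows from this and is no separate check. The number below 0, 43, stayed within 1.5 times under each. The 8 members lower by at least 0.32 became 5 after rescaling to a median of 0, with TMM factors and after subtraction of the length class, each time without TRAM1, SSR1 and SPCS3. The 1 higher member became 2 with a pseudocount of 0.1, after rescaling and with TMM factors, 5 after subtraction of the length class, and 0 without members that share a near-identical stretch. SEC24B-AS1 was gained with the pseudocount of 0.1, and SRP72 after rescaling and with TMM factors. Subtraction of the length class added SAR1B, SRP72, TMED8 and TRAPPC13. The member median of −0.06 became −0.0063 after rescaling, −0.0078 with TMM factors, 0.0053 after subtraction of the length class and −0.10 without members that share a near-identical stretch. With that subtraction, the COPII median also turned from −0.05 to 0.012 (−0.0021 after rescaling, −0.0033 with TMM factors), and the medians of the translocon, signal peptidase and p24 genes moved to −0.19, −0.14 and −0.17. The signal peptidase median was −0.15 after rescaling and −0.16 with TMM factors. Without members that share such a stretch, the SRP group held SRP54 alone and turned to −0.082, and the SEC22 group held SEC22A alone at 0.20. Without shared values the p24 median was −0.14, the TRAPP median 0.0033 and the COPII median −0.07. TMED3 had the lowest log2 ratio of the members, but SEC61A2 did with a pseudocount of 0.1 (−0.53) and with TMM factors, and TMED6 after subtraction of the length class (−0.48), where TRAPPC13 (0.37) in place of SRP68 was the highest. The pair of other transcripts (TMED7-TICAM2 and SEC24B-AS1, −0.03) turned to 0.038 with a pseudocount of 0.1, 0.020 after rescaling, 0.0072 with TMM factors and 0.20 without shared values. Subsets change the members by construction, and the cause of the other shifts was not tested. The translocon median lay between −0.33 and −0.19 under all alternatives run, and the COPI median stayed between 0.05 and 0.12. For named members, the shift was compared with the distance from the middle of the counting interval to its end. It was larger in 26 cases and not in 359, and no named member that differed by at least 0.32 changed sign. Depth limits only the counting error, and the missing replicates limit every comparison.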
